A study of Mus musculus with 2 samples.

Results

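The core spliceosome genes of G1E-ER4 cells were taken as all gene entries whose symbol begins with Snrp, or with Sf3a, Sf3b, Lsm or Prpf followed by a digit. This gave 48 of the 43346 genes measured, 47 of them protein coding and 1, Snrpert, a processed pseudogene. A further entry, Snrp1c-ps2, was left out as a pseudogene by its symbol and held 0 counts in both libraries. G1E-ER4 is an immortalized mouse erythroid line that lacks functional Gata1 of its own and expresses a fusion of GATA1 with the hormone-binding domain of an estrogen receptor; hormone switches the fusion on and the cells differentiate. Polyadenylated RNA was sequenced from both fragment ends in 1 group, cells given 10 nM 17beta-estradiol for 24 h, with 2 libraries labelled biological replicates 1 and 2. Both libraries carry the same Gata1 loss, the same fusion gene and the same hormone, and no untreated cells were analysed here. Both also carry the same biosample record, so nothing in the labels says that they came from separate cultures and the spread between them may be technical. A cultured line with a hormone-dependent fusion models red cell maturation only in part.

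Pre-mRNA splicing is carried out by small nuclear ribonucleoproteins, the snRNPs U1, U2, U4, U5 and U6, each an RNA with bound proteins. Products of the Snrp genes include the Sm proteins, which form a ring on U1, U2, U4 and U5 RNA, and proteins that belong to U1 or U2 alone. SF3A and SF3B are the parts of U2 snRNP that hold it on the branch site of the intron. LSm proteins form the corresponding ring on U6 RNA, and most PRPF proteins act in the U4/U6.U5 tri-snRNP or in its rearrangement. Splicing matters in red cell precursors in particular: in human myelodysplastic syndromes with ring sideroblasts, SF3B1 is the gene most often mutated.

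Estimated counts over all genes came to 70451041 for replicate 1 and 13841484 for replicate 2, so replicate 1 was 5.09 times as deep. The limit that a count of 0 allows, 3 counts of the library total, was 0.0426 CPM (counts scaled by library size) for replicate 1 and 0.217 CPM for replicate 2, covering counting error only. All 7 erythroid markers were measured, summing to 195129 TPM (a level corrected for transcript length and scaled to the same sum in every library) in replicate 1 and 83715 TPM in replicate 2. Markers of other cells were low: 4 myeloid genes summed to 0.650 and 0.920 TPM in replicates 1 and 2, 3 lymphoid genes to 0.230 and 0.610 TPM, 2 megakaryocyte genes to 2.02 and 4.33 TPM, and 3 stromal genes to 4.92 and 41.9 TPM. Vim made up nearly all of the stromal sum, at 4.90 TPM in replicate 1 and 41.7 TPM in replicate 2, and 1 gene of each of these 4 lists was at 0 in both libraries. These marker sums and the depth move with the difference between the libraries, and their part in it was not tested.

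Most core spliceosome genes were expressed in both libraries, with levels from 0.580 to 469 TPM in replicate 1 and from 0 to 2432 TPM in replicate 2. A level of 1 TPM or more in each library was found for 36 of the 48 members, and the 12 others missed it in replicate 2, 2 of them (Lsm5 and Snrpert) in replicate 1 as well. The median over all 48 members was 30.8 TPM in replicate 1 and 9.05 TPM in replicate 2. Over the 36 detected members it was 48.005 TPM in replicate 1 and 29.2 TPM in replicate 2, beside 19.0 and 14.7 TPM over all genes detected in both. Averaged over the 2 libraries, the median was 45.9 TPM for detected members, beside 18.6 TPM for all detected genes, and 24.8 TPM for all 48 members. Together the members held 0.405% of all TPM in replicate 1 and 0.721% in replicate 2 (0.563% ± 0.224, SD, n = 2).

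The larger share in replicate 2 came from very few genes. Sf3a2 and Sf3b4 alone, chosen after their values were seen, held 21.1% of the members' TPM in replicate 1 and 54.2% in replicate 2. Without them the members summed to 3196 TPM in replicate 1 and 3303 TPM in replicate 2, against 4049 and 7214 TPM with them. The 5 highest members of each library held 49.96% of the sum in replicate 1 and 77.4% in replicate 2. Levels of at least 100 TPM were found for 10 members in replicate 1 and 12 in replicate 2, 7 of them in both. At the low end Lsm3, Lsm5, Snrpb2, Snrpg and Snrpert were listed at 0 in replicate 2, and no member was at 0 in replicate 1. The order of members was broadly kept, with a Spearman correlation of TPM between the libraries of 0.85 across the 48 members and 0.81 across all detected genes. The sets are unlike, since 12 of the 48 members were under 1 TPM in replicate 2 and all detected genes were at 1 TPM or more in both. These correlations are across genes, which share both libraries and are not independent replicates.

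**Figure D1:**
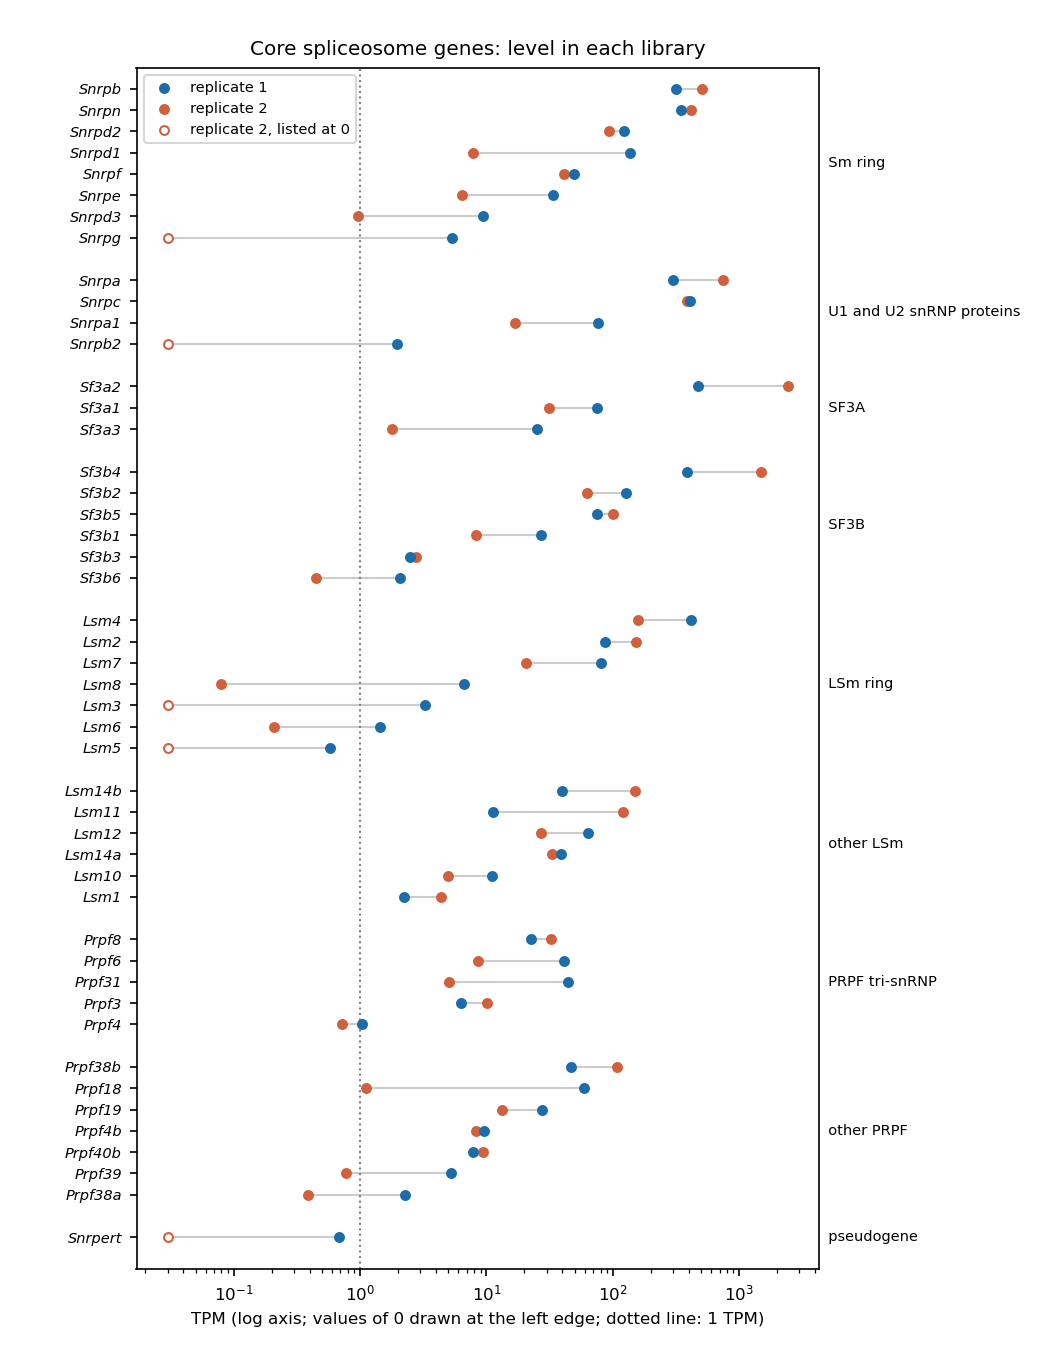
Level of the core spliceosome genes in TPM (log axis) in replicate 1 (blue) and replicate 2 (orange), by role, with open circles for members listed at 0 in replicate 2 and a dotted line at 1 TPM. Sf3a2 and Sf3b4 reach 2432 and 1479 TPM in replicate 2, while LSm ring members other than Lsm2, Lsm4 and Lsm7 lie below 7 TPM in both libraries.

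To set the libraries side by side, rounded estimated counts were scaled by TMM and each gene was compared with a two-sided exact binomial test, with Benjamini-Hochberg adjustment over the 8884 genes whose mean CPM was 1 or more. Called genes had an adjusted p under 0.05 and differed by 2-fold or more. With 1 library on each side the test compares these 2 libraries with counting error only, and says nothing about conditions. All log2 ratios below are of scaled counts, replicate 1 over replicate 2.

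More members were higher in replicate 1 than in replicate 2. Of the 43 members that passed the filter, 20 were called higher in replicate 1 (46.5%), where 30.0% of all genes tested were, and 7 were called higher in replicate 2 (16.3%), beside 17.9% of all genes tested. The other 16 were not called, 11 of them with an adjusted p under 0.05 but less than a 2-fold difference and 5 with an adjusted p of at least 0.05. The median log2 ratio of the 43 was 0.89, beside 0.20 over all genes tested, and over the 31 members with a mean CPM of at least 10 it was 0.21, beside 0.015 over all such genes. The 5 members at 0 in replicate 2 did not pass the filter. Another 4 members (Lsm8, Lsm6, Sf3b6 and Prpf38a) passed it only through their level in replicate 1 and so had to differ, and without them 16 of 39 members (41.0%) were called higher in replicate 1 and 7 (17.9%) higher in replicate 2. Over all 7998 genes with at least 1 CPM in both libraries, 25.9% were called higher in replicate 1 and 17.4% higher in replicate 2. The median log2 ratio of those 39 members was 0.21, beside 0.13 over all such genes, so the gap between the medians depended on the members low in replicate 2. No member passed only through replicate 2. The counts therefore describe the members that passed, not all 48.

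**Figure D2:**
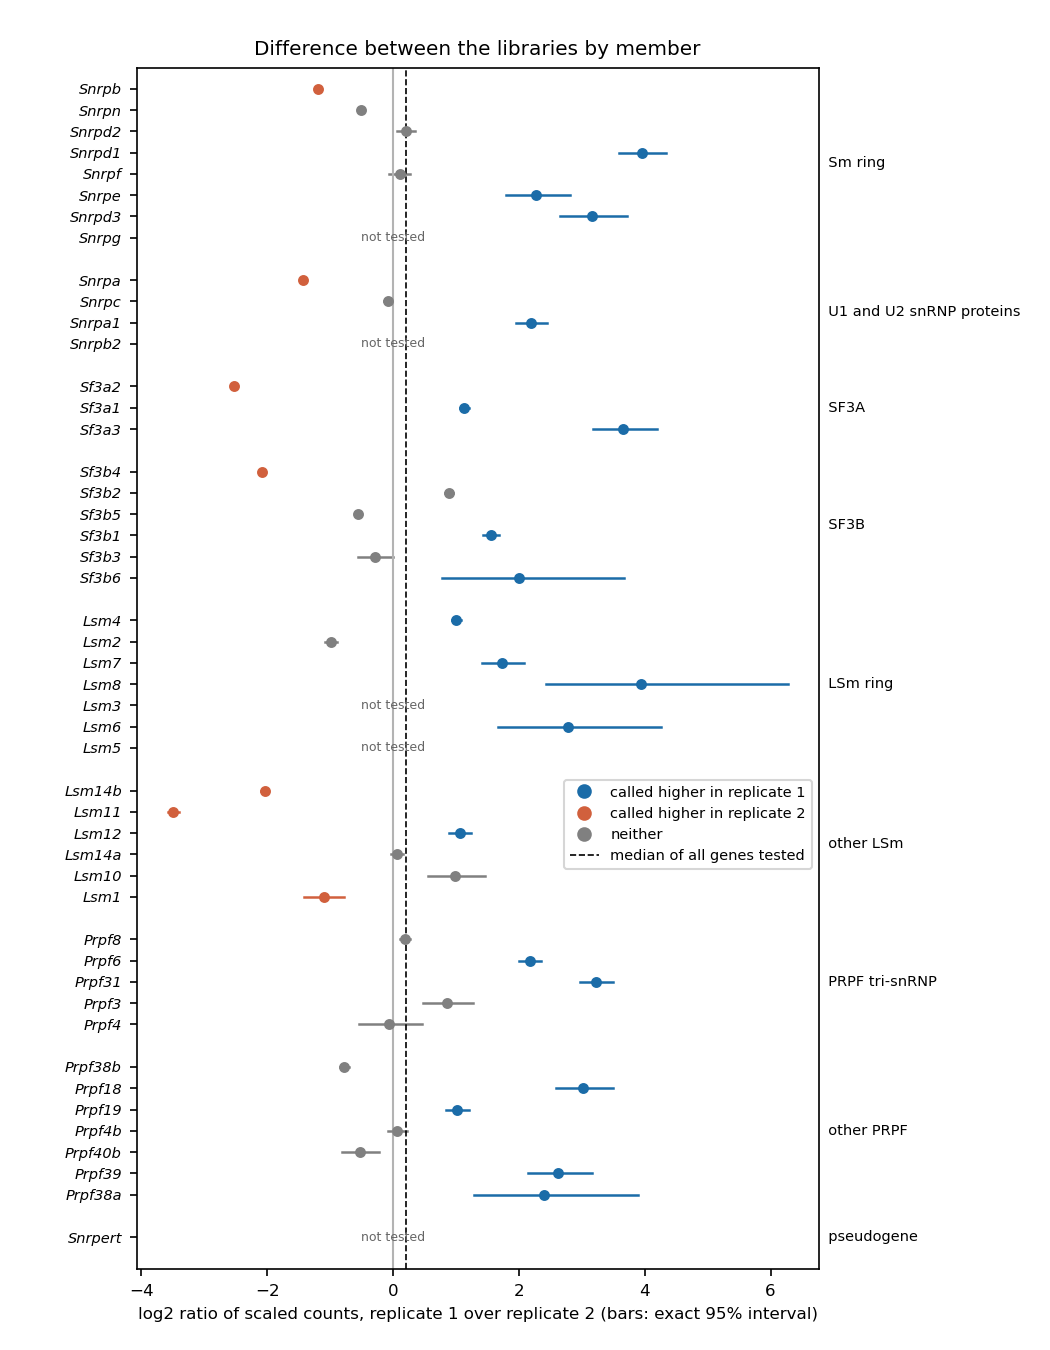
Log2 ratio of TMM-scaled counts, replicate 1 over replicate 2, for members by role, with exact 95% intervals (counting error only), 0 as a solid line and the median of all genes tested (0.20) as a dashed line. Blue members were called higher in replicate 1 and the 7 orange ones higher in replicate 2, and members of SF3A and of SF3B lie on both sides.

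Promoters are shown for 4 members with large called folds and a single start in the RefSeq table (GRCm38.p6). These members are Lsm11 and Sf3a2 for replicate 2, and Lsm8 and Sf3a3 for replicate 1. Lsm8 passed the filter only through replicate 1 and so had to differ. Snrpd1 had the largest called log2 ratio in favour of replicate 1 (3.95) but was left out of this choice. Each printed promoter is the 300-base window around the annotated start, most of it upstream, written 5′ to 3′ on the strand of the gene. Capitals mark exact matches to GGGCGG or CCGCCC (SP1), CCGGAAG or CTTCCGG (ETS) and GCGCATGC or GCATGCGC (NRF1). Lsm11 is at chr11:45944886-45945185 on the minus strand, Sf3a2 at chr10:80798485-80798784 on the plus strand, Lsm8 at chr6:18848385-18848684 on the plus strand and Sf3a3 at chr4:124714611-124714910 on the plus strand.
Lsm11: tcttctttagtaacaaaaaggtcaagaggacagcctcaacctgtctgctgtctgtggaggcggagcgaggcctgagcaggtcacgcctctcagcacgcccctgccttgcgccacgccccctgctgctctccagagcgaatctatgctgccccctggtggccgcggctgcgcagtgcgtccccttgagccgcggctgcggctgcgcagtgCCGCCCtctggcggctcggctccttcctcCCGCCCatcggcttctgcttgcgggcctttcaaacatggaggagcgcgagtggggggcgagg
Sf3a2: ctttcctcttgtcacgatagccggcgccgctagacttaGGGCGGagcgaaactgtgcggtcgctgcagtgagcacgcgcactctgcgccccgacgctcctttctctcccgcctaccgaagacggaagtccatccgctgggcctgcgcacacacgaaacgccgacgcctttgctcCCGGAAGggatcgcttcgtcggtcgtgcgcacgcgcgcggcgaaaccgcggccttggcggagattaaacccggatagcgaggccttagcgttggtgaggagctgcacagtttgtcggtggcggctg
Lsm8: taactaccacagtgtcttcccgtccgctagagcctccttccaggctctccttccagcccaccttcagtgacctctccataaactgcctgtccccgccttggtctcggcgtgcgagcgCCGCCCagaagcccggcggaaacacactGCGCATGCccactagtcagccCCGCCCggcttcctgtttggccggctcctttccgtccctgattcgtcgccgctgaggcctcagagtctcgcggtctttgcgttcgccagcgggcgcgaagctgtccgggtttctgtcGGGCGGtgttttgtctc
Sf3a3: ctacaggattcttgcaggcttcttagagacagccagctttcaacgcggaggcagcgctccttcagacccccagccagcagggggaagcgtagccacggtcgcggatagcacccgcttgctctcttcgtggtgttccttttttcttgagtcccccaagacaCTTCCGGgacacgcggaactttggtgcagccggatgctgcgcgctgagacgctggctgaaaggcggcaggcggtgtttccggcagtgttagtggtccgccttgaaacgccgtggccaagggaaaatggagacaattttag
All 4 are rich in G and C, with 66.7% in Lsm11, 65.0% in Sf3a2, 64.0% in Lsm8 and 59.0% in Sf3a3. Lsm11 has 2 SP1 matches, Sf3a2 has 1 SP1 and 1 ETS match, Lsm8 has 3 SP1 matches and 1 NRF1 match, and Sf3a3 has 1 ETS match.

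Over all members, 38 of 48 matched the promoter table, with 48 windows. The ETS letters were in 16 of the 48 windows (33.3%), in 21.8% of the 7324 windows of genes detected in both libraries and in 8.86% of all 32851 windows. SP1 letters were in 54.2% of the members' windows, 67.5% of those of detected genes and 35.7% of all. NRF1 letters were in 6.25%, 6.28% and 2.71% of the same sets, and those of YY1 (AAGATGGC or GCCATCTT) in 8.33%, 5.50% and 2.75%. The GATA letters AGATAA or TTATCT were in 6.25% of the members' windows, 5.67% of those of detected genes and 11.2% of all. Among members called higher in replicate 1, 6 of 17 windows held the ETS letters and 12 of 17 the SP1 letters, against 1 of 5 and 4 of 5 for members called higher in replicate 2. Median GC content was 59.0% for the windows of members higher in replicate 1 and 65.0% for those of members higher in replicate 2, beside 62.0% for detected genes. The windows of members called higher in replicate 1 include that of Lsm8, which passed the filter only through replicate 1. A match is a description of letters in the window, not a bound site.

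Some Sm ring genes were even between the libraries and others strongly unequal. Of 8 genes, 7 were tested, 3 were called higher in replicate 1, 1 was called higher in replicate 2 and 3 were not called. The counts of this and the following role groups are read against 30.0% and 17.9% of all genes tested, called higher in replicates 1 and 2. Snrpb, which encodes the B protein of the ring, was at 317 TPM in replicate 1 and 506 TPM in replicate 2 (log2 ratio -1.20, exact 95% interval -1.24 to -1.15). Snrpn encodes N, a close relative of B that is imprinted and best known from brain, and was at 350 TPM in replicate 1 and 418 TPM in replicate 2 (log2 ratio -0.51, not called). In these erythroid cells the 2 relatives were thus of the same order of level.

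Snrpd1 had, with Lsm8, the largest ratio of the members tested in favour of replicate 1: it encodes the D1 protein and was at 137 TPM in replicate 1 and 7.84 TPM in replicate 2 (log2 ratio 3.95, interval 3.60 to 4.34). Its ring partner Snrpd2 was at 123 TPM in replicate 1 and 93.7 TPM in replicate 2, and was not called (log2 ratio 0.21). Snrpd3 was lower than both, at 9.37 TPM in replicate 1 and 0.960 TPM in replicate 2 (log2 ratio 3.16). Snrpe was at 33.9 TPM in replicate 1 and 6.39 TPM in replicate 2 (log2 ratio 2.28), and Snrpf was even at 49.2 and 40.7 TPM (log2 ratio 0.11). Snrpg was the lowest ring gene, at 5.38 TPM in replicate 1 and listed at 0 in replicate 2. Against a floor of 3 counts in replicate 2 it was at least 3.68-fold higher in replicate 1, with an exact 95% interval of the ratio that starts at 2.92. Both values take the count of 0 as given, although Gm8186, identical to Snrpg over 231 bases, held 5 counts in replicate 2. Proteins that sit side by side in the ring were thus encoded by mRNAs that differed widely in level within each library. Summed over the ring the libraries differed little, with 1025 TPM in replicate 1 and 1073 TPM in replicate 2.

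Of the proteins specific to U1 and U2, 3 of 4 genes were tested, and they differed in 3 ways. Snrpa encodes the U1 protein that binds a stem-loop of U1 RNA, and was called higher in replicate 2, with 300.4 TPM in replicate 1 and 747 TPM in replicate 2 (log2 ratio -1.43, interval -1.46 to -1.40). Snrpc, the U1 protein that helps pair U1 with the 5′ splice site, was among the most even of the high members, at 405 TPM in replicate 1 and 383 TPM in replicate 2 (log2 ratio -0.09). Snrpa1, a U2 protein, was called higher in replicate 1, with 76.4 TPM in replicate 1 and 16.8 TPM in replicate 2 (log2 ratio 2.20). Snrpb2, its binding partner on U2 RNA and a relative of Snrpa, was at 1.96 TPM in replicate 1 and listed at 0 in replicate 2, at least 5.52-fold higher in replicate 1 against the same floor, with an interval that starts at 4.41.

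The 3 subunits of SF3A were all called, in opposite directions. Sf3a2 was the highest of all members in both libraries, at 469 TPM in replicate 1 and 2432 TPM in replicate 2 (log2 ratio -2.52, interval -2.54 to -2.50). It lay above 96.7% of detected genes in replicate 1 and above 99.2% in replicate 2. Sf3a1 was at 74.7 TPM in replicate 1 and 31.4 TPM in replicate 2 (log2 ratio 1.13). Sf3a3 was at 25.1 TPM in replicate 1 and 1.80 TPM in replicate 2 (log2 ratio 3.65, interval 3.17 to 4.19). The 3 products form 1 complex, yet within replicate 2 the mRNA levels of Sf3a2 and Sf3a3 stood at 2432 and 1.80 TPM.

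The 6 genes with an Sf3b symbol showed a like split, with 2 of 6 called higher in replicate 1, 1 higher in replicate 2 and 3 not called. Subunits of SF3B without such a symbol are not counted here. Sf3b6, among the 2, passed the filter only through replicate 1 and so had to differ. Sf3b4, whose product contacts the intron near the branch site, was at 384 TPM in replicate 1 and 1479 TPM in replicate 2 (log2 ratio -2.09, interval -2.11 to -2.07). Sf3b1, the scaffold around the branch site, was called higher in replicate 1, at 27.1 TPM against 8.21 TPM in replicate 2 (log2 ratio 1.55). Sf3b6, which sits next to the branch site in the scaffold, was at 2.06 TPM in replicate 1 and 0.450 TPM in replicate 2, and its ratio rested on 5 counts in replicate 2 (log2 ratio 2.00, interval 0.77 to 3.68). Sf3b2 was at 126 TPM in replicate 1 and 62.3 TPM in replicate 2 (log2 ratio 0.89), and Sf3b5 at 75.0 and 101 TPM (log2 ratio -0.56). Sf3b3 was low in both libraries, at 2.49 TPM in replicate 1 and 2.77 TPM in replicate 2 (adjusted exact binomial p = 0.053).

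The LSm ring combined high genes with some that were near or at 0 in replicate 2. Of 7 genes, 5 were tested, 4 were called higher in replicate 1 and none higher in replicate 2. Lsm8 and Lsm6 passed the filter only through replicate 1 and so had to differ, which leaves 2 called of 3, where 25.9% of all genes with at least 1 CPM in both libraries were called higher in replicate 1. Lsm4 was at 415 TPM in replicate 1 and 159 TPM in replicate 2 (log2 ratio 1.01), Lsm7 at 80.2 and 20.6 TPM (log2 ratio 1.74), and Lsm2 at 87.0 and 154 TPM without a call (log2 ratio -0.99). The remaining ring genes were near or under 1 TPM in replicate 2. Lsm8, which sets the nuclear U6 ring apart from the cytoplasmic one, was at 6.64 TPM in replicate 1 and 0.0800 TPM in replicate 2, with 320 and 3 counts. Its ratio of 15.9 carried an exact 95% interval of 5.39 to 77.5.

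Lsm6 was at 1.45 TPM in replicate 1 and 0.210 TPM in replicate 2 (log2 ratio 2.78). Lsm3 was at 3.26 TPM in replicate 1 and listed at 0 in replicate 2, at least 6.61-fold higher in replicate 1 against the same floor, with an interval that starts at 5.30. Lsm5 had 15 counts in replicate 1 and 0 in replicate 2, which is too few for a bound above 1. In replicate 2, 4 of the 7 ring genes were thus under 1 TPM, and at the depth of that library they cannot be called absent.

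LSm proteins outside the U6 ring held 3 of the 7 members called higher in replicate 2. Lsm11, with Lsm10 a part of the U7 snRNP that processes the 3′ ends of histone mRNAs, had the largest ratio in favour of replicate 2, at 11.2 TPM in replicate 1 and 120 TPM in replicate 2 (log2 ratio -3.49, interval -3.58 to -3.40). Lsm10 was at 11.0 TPM in replicate 1 and 4.95 TPM in replicate 2 and was not called (log2 ratio 0.99). Lsm14b and Lsm14a are related RNA-binding proteins of cytoplasmic granules, and behaved differently: Lsm14b was at 39.8 TPM in replicate 1 and 149 TPM in replicate 2 (log2 ratio -2.04), and Lsm14a at 38.7 and 33.1 TPM (log2 ratio 0.06). Lsm1, which replaces Lsm8 in the cytoplasmic ring that promotes mRNA decapping, was low at 2.23 TPM in replicate 1 and 4.37 TPM in replicate 2 and was called higher in replicate 2 (log2 ratio -1.10, interval -1.42 to -0.78). Lsm12 was at 63.5 TPM in replicate 1 and 27.0 TPM in replicate 2 (log2 ratio 1.06).

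Of the 13 PRPF genes, 7 were called higher in replicate 1 and none higher in replicate 2, where 30.0% and 17.9% of all genes tested were. Prpf38a, among the 7, passed the filter only through replicate 1 and so had to differ. In the tri-snRNP, Prpf31, a U4 protein, was at 44.2 TPM in replicate 1 and 5.09 TPM in replicate 2 (log2 ratio 3.22, interval 2.97 to 3.50). Prpf6, which bridges U5 to U4/U6, was at 41.1 TPM in replicate 1 and 8.63 TPM in replicate 2 (log2 ratio 2.18). Prpf8, the large U5 protein at the catalytic centre, was not called, at 22.6 TPM in replicate 1 and 32.4 TPM in replicate 2 (log2 ratio of counts 0.19). Prpf3 was at 6.26 TPM in replicate 1 and 10.0 TPM in replicate 2, while its scaled counts pointed the other way at 8.85 and 4.89 CPM (log2 ratio 0.85). For Prpf8 and Prpf3 the TPM and the counts differ in direction because TPM divides by an effective length that follows the transcripts assigned in each library. Prpf4 was the lowest of these genes, at 1.03 TPM in replicate 1 and 0.720 TPM in replicate 2. Its scaled counts and those of Snrpc also differed in direction from TPM, with log2 ratios of -0.06 and -0.09. With total counts these ratios were 0.34 and 0.31, the direction of the TPM.

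Among the other PRPF genes, Prpf18, a factor of the second catalytic step, was at 59.2 TPM in replicate 1 and 1.11 TPM in replicate 2 (log2 ratio 3.02). Prpf39, which is linked to U1, was called higher in replicate 1, at 5.24 TPM in replicate 1 and 0.770 TPM in replicate 2 (log2 ratio 2.63). Prpf40b was not called, at 7.77 TPM in replicate 1 and 9.47 TPM in replicate 2. Prpf38a, needed for activation of the spliceosome, was at 2.28 TPM in replicate 1 and 0.390 TPM in replicate 2, with 217 and 6 counts (log2 ratio 2.41, interval 1.29 to 3.89). Its relative Prpf38b was at 46.8 TPM in replicate 1 and 107 TPM in replicate 2 and was not called (log2 ratio -0.77). Prpf19, the ubiquitin ligase of the complex that bears its name, was at 27.6 TPM in replicate 1 and 13.3 TPM in replicate 2 (log2 ratio 1.02), and the kinase Prpf4b was even at 9.53 and 8.32 TPM (log2 ratio 0.07). Calls near the 2-fold line depended on the scaling: with DESeq2 size factors Lsm4, Lsm12 and Prpf19 lost theirs and Lsm2 gained one in favour of replicate 2, and with total counts Snrpb and Lsm1 lost theirs.

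The GC content of the leading transcript, the one with the highest mean TPM in its gene, moved with the difference between the libraries. It was available for 43 of the 48 members (89.6%) and for 8128 genes tested (91.5%). Across the 39 members tested that had a value, the ratio in favour of replicate 1 tended to be lower at higher GC content (Spearman -0.47, Pearson -0.49). Across all genes tested the Spearman correlation was -0.27. The fall was not steady within classes of GC content. Among members the Spearman correlation was -0.05 below 50% GC, -0.39 from 50% to 55% and 0.43 at 55% and over. Over all genes tested it was -0.04, -0.10 and -0.32 in the same classes. Without the 4 members that passed the filter only through replicate 1, the Spearman correlation over 35 members was -0.39, beside -0.23 over all genes with at least 1 CPM in both libraries. All describe genes that share the same 2 libraries, and no p is given. Of the 7 members with at least 55% GC, 5 were called higher in replicate 2 (Lsm11, Sf3b4, Snrpa, Snrpb and Sf3a2), 1 was called higher in replicate 1 (Lsm4) and 1 was not called (Prpf40b). Of all 3015 genes tested in that range, 23.5% were called higher in replicate 2 and 15.9% higher in replicate 1. Of the 20 members below 50% GC, 12 were called higher in replicate 1 and none higher in replicate 2, where 40.4% of all 2868 genes tested below 50% were called higher in replicate 1 and 15.8% higher in replicate 2. Those 12 include the 4 members that had to differ, and without them it was 8 of 16, beside 33.8% of all genes below 50% GC with at least 1 CPM in both libraries. From 50% to 55% GC, 7 of 12 members were called higher in replicate 1 and 1 higher in replicate 2. Of all 2245 genes tested in that class, 35.0% were called higher in replicate 1 and 12.6% higher in replicate 2. Over all genes tested the median log2 ratio was 0.88 below 40% GC, -0.0049 between 55% and 60%, and -0.77 from 60% upward. The part of GC content in the members' differences was not tested. Of the other members called higher in replicate 2, Lsm14b was at 52.8% GC and Lsm1 had no GC value. Transcript length was less related, with a Spearman correlation of -0.16 over members and -0.11 over all genes tested.

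**Figure D3:**
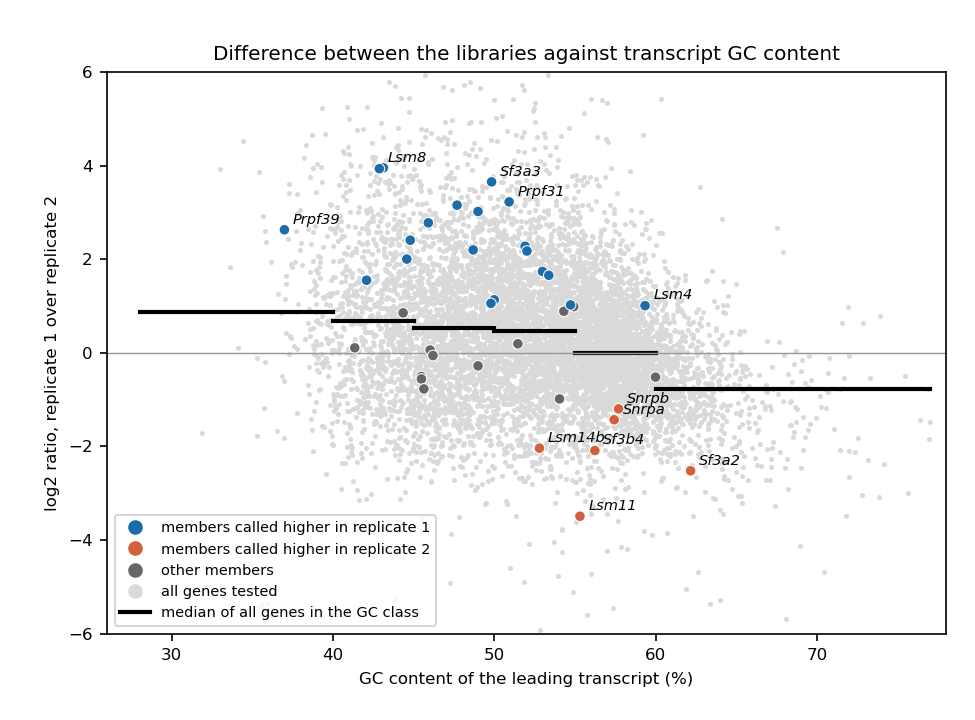
Log2 ratio, replicate 1 over replicate 2, against GC content (%) of the leading transcript for 39 members (coloured by call) and 8128 genes tested (grey), with the median of all genes in each GC class as black bars; 107 grey genes beyond a log2 ratio of 6 in size are not drawn. Members called higher in replicate 2 lie to the right, from 52.8% GC in Lsm14b to 62.2% in Sf3a2, and the class medians decline toward the right.

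The deposited transcript estimates assigned some members to different transcripts in the 2 libraries. Among 17 members with at least 10 TPM in both libraries and more than 1 transcript, the leading transcript differed in 4 (23.5%), namely Snrpn, Snrpa, Prpf8 and Prpf38b, beside 32.3% of 3060 such genes overall. Snrpn-201 was at 350 TPM in replicate 1 and 0.0200 TPM in replicate 2, and Snrpn-202 was listed at 0 in replicate 1 and was at 418 TPM in replicate 2. The deposited posterior means gave a less complete exchange, with Snrpn-201 at 345 TPM in replicate 1 and 37.4 TPM in replicate 2, and Snrpn-202 at 0.250 and 357 TPM. Both encode the same protein and share 1849 bases of exon, with 83 bases found only in Snrpn-201 and 227 only in Snrpn-202. They start at different sites of chromosome 7 on the minus strand of GRCm38, Snrpn-201 at 60005111 and Snrpn-202 at 60140219.

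Prpf8 was assigned to its full-length transcript Prpf8-201 at 22.5 TPM in replicate 1 and 6.73 TPM in replicate 2. The rest in replicate 2 was Prpf8-203, listed at 0 in replicate 1 and at 25.7 TPM in replicate 2, a transcript of 19 exons whose 3371 bases all lie within the 5′ part of Prpf8-201 (42 exons, 7442 bases). In Prpf38b the class of the transcript changed. The protein coding Prpf38b-201 was at 28.6 TPM in replicate 1 and 1.98 TPM in replicate 2, and the retained-intron transcript Prpf38b-205 was at 0.610 TPM in replicate 1 and 104 TPM in replicate 2. The level of Prpf38b in replicate 2 was thus nearly all assigned to a transcript annotated as not coding. Snrpa-201 and Snrpa-202 encode the same protein and differ by 29 bases, and their near-equal shares changed order (46.7% and 53.0% of Snrpa in replicate 1, against 47.9% and 44.9% in replicate 2).

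Transcripts annotated as not protein coding held 11.1% of the members' TPM in replicate 1 and 4.34% in replicate 2 (7.74% ± 4.81, SD, n = 2), beside 40.1% and 34.4% over all protein coding genes. These shares weigh members by TPM. Sf3a2 and Sf3b4, almost wholly protein coding, held 21.1% of that TPM in replicate 1 and 54.2% in replicate 2. Single members went both ways, with Prpf38b at 38.9% and 98.2% not coding in replicates 1 and 2, and Snrpb at 31.3% and 0.0890%. Retained-intron transcripts made up 4.93% in replicate 1 and 1.64% in replicate 2, and transcripts annotated as targets of nonsense-mediated decay 3.08% and 2.00%. In some members 1 library alone carried such a transcript. Snrpb-204, a retained-intron transcript, was at 98.6 TPM in replicate 1 and listed at 0 in replicate 2, so that the protein coding Snrpb-201 was at 218 TPM in replicate 1 and 505 TPM in replicate 2. Lsm4-203, also a retained-intron transcript, was at 80.9 TPM in replicate 1 and listed at 0 in replicate 2. Prpf18-203, a processed transcript of 496 bases, was at 53.4 TPM in replicate 1 and listed at 0 in replicate 2, and the coding Prpf18-201 was at 3.78 TPM in replicate 1 and 1.08 TPM in replicate 2. Most of the difference in the TPM of Prpf18 was thus assigned to a short transcript, while its counts differed 8.13-fold. In other members the non-coding class led in both libraries: Lsm11-201 and Snrpa1-201, both annotated as decay targets, held 97.6% and 93.8% of their genes in replicate 1 and 99.6% and 80.0% in replicate 2.

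**Figure D4:**
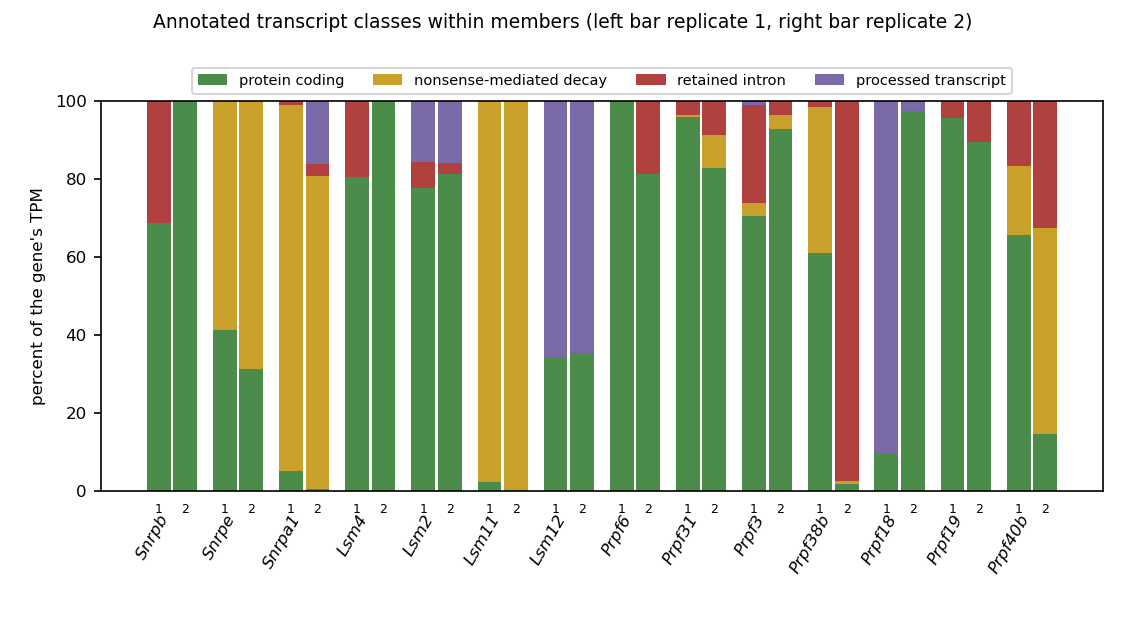
Percent of each gene's TPM in protein coding, decay-target, retained-intron and processed transcripts, left bar replicate 1 and right bar replicate 2, for members detected in both libraries in which classes other than protein coding held at least 10% in 1 library. Prpf38b is almost wholly retained-intron in replicate 2, Prpf18 almost wholly processed transcript in replicate 1, and Snrpb and Lsm4 carry a visible retained-intron part in replicate 1, with Snrpb at 0.0890% not coding in replicate 2.

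Near-identical copies could divide the counts of some members. A transcript of another gene matched at 90% identity or more over at least 200 bases for 21 of the 48 members. Most copies held few counts. The largest was Gm38393, which overlaps Snrpn on the same strand and shares 266 identical bases with it, at 15.7 TPM in replicate 1 and 201 TPM in replicate 2, so the levels of both are uncertain. Gm7935, a processed pseudogene of Sf3b4 matching at 99.3%, was at 1.83 TPM in replicate 1 and 24.8 TPM in replicate 2, small beside Sf3b4 itself. Gm10146 matched Lsm7 at 100% over 309 bases and was at 7.07 TPM in replicate 1 and listed at 0 in replicate 2. As a percent of the count, the deposited posterior standard deviation in replicate 1 was largest for Snrpg (3.44%), followed by Lsm7 (2.13%). In replicate 2 Snrpg had no such value and Lsm7 was largest (7.09%). Snrpn reached 0.125% in replicate 1 and 0.799% in replicate 2. Snrpert matched Snrpe at 98.9% and held 6 counts in replicate 1, with a posterior standard deviation of 0. Gm8186 matched Snrpg at 100% over 231 bases and held 5 counts in replicate 2, where Snrpg was listed at 0. If those counts came from Snrpg, the bound and interval given for Snrpg above would not hold.

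Some members overlap a gene on the other strand, and no source used here states whether the counting used strand. Plekhj1 overlaps the start of Sf3a2 and was at 83.8 TPM in replicate 1 and 35.3 TPM in replicate 2, opposite in direction to Sf3a2. Fkbp3 overlaps the end of Prpf39 and was at 19.9 TPM in replicate 1 and 0.330 TPM in replicate 2, the same direction as Prpf39. If strand was not used, reads of such partners and of the members could not be told apart where they overlap, so these values carry that limit.

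Other genes of the splicing pathway were set beside the members in 10 lists, with 156 of 157 symbols matched and 148 tested, and 3 genes in 2 lists. Of these, 72 were called higher in replicate 1 (48.6%) and 21 higher in replicate 2 (14.2%), with a median log2 ratio of 0.89. All 3 values were close to those of the members, 46.5%, 16.3% and 0.89, while over all genes tested the shares were 30.0% and 17.9% and the median 0.20. With at least 1 CPM in both libraries, 63 of 139 (45.3%) were called higher in replicate 1, beside 41.0% of the 39 members and 25.9% of all such genes. The median log2 ratio was then 0.81 for these 139 genes, 0.21 for the 39 members and 0.13 for all such genes. The likeness of the medians thus depended on the filter. The counts of the single lists below are read against the same 30.0% and 17.9%, and no test of the lists was made. These counts and medians include genes that passed the filter only through replicate 1 and were called higher there. Such genes were Cwc27, Slu7 and Crnkl1 (Prp19 list), Smu1 (tri-snRNP partners), and Coil and Gemin2 (Sm ring assembly). The others were Upf3b and Upf2 (exon junction complex) and Zrsr1 (minor spliceosome). Of the 7 Snrnp genes, 6 were called higher in replicate 1 and none higher in replicate 2, with a median log2 ratio of 2.69. Snrnp25, Snrnp35 and Snrnp48 are also in the minor spliceosome list, so the calls of Snrnp35 and Snrnp48 are counted in both lists. Snrnp70, the U1 protein that binds U1 RNA beside Snrpa, was at 624 TPM in replicate 1 and 82.0 TPM in replicate 2 (log2 ratio 2.79). The U1 proteins encoded by Snrnp70, Snrpc and Snrpa thus had log2 ratios of 2.79, -0.09 and -1.43. Snrnp200, the U5 helicase that unwinds U4/U6, was at 14.9 TPM in replicate 1 and 3.30 TPM in replicate 2 (log2 ratio 1.79).

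Partners of the tri-snRNP were called higher in replicate 1 in 8 of 11 genes and higher in replicate 2 in 1, with the highest mean level for Ik, at 57.4 TPM in replicate 1 and 1.97 TPM in replicate 2. In the list of the Prp19 complex and its associates 16 of 22 were called higher in replicate 1 and 1 higher in replicate 2, Rbm22, which was also the highest of that list at 101 TPM in replicate 1 and 286 TPM in replicate 2. Of 11 U5 proteins and helicases 7 were called higher in replicate 1 and none higher in replicate 2. Eftud2, the U5 GTPase that partners Prpf8, had the highest mean level of that list, at 178 TPM in replicate 1 and 9.85 TPM in replicate 2, although in replicate 2 the helicase gene Ddx23 was higher at 63.3 TPM.

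The list around U2AF and the branch point had shares near those over all genes tested, with 4 of 16 called higher in replicate 1 (25.0%) and 3 higher in replicate 2 (18.8%) and a median log2 ratio of -0.05. Sf1, the branch point binding protein that U2 snRNP displaces, was at 1084 TPM in replicate 1 and 3720 TPM in replicate 2 (log2 ratio -1.39), the same direction as Sf3a2 and Sf3b4. In the minor spliceosome 3 of 12 were called in each direction (25.0% each). Of 13 genes of Sm ring assembly tested, 5 were called higher in replicate 1 and 3 higher in replicate 2, among them Smn1 at 40.6 TPM in replicate 1 and 85.9 TPM in replicate 2 (log2 ratio -1.17).

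Regulators of splicing were also mixed. SR proteins were called higher in replicate 1 in 8 of 19 and higher in replicate 2 in 4, among them Srsf2 at 611 TPM in replicate 1 and 1689 TPM in replicate 2. Among hnRNP genes 10 of 24 were higher in replicate 1 and 4 higher in replicate 2, with Pcbp1 at 1158 TPM in replicate 1 and 4490 TPM in replicate 2. In the exon junction complex and decay list, 7 of 16 were higher in replicate 1 and 2 higher in replicate 2.

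**Figure D5:**
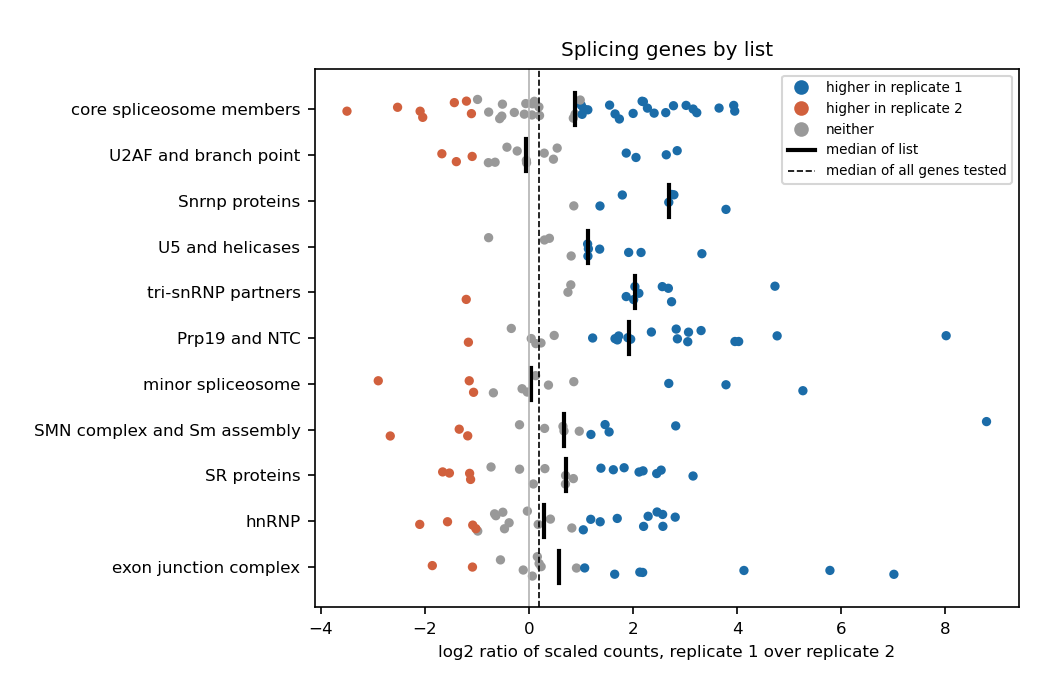
Log2 ratio, replicate 1 over replicate 2, of each gene tested among the core spliceosome members and 10 other splicing lists (blue, called higher in replicate 1; orange, higher in replicate 2; grey, neither), with list medians as black bars and the median of all genes tested (0.20) dashed. The Snrnp, tri-snRNP partner and Prp19 lists lie furthest to the right, with medians of 2.69, 2.04 and 1.93, and the U2AF and minor spliceosome lists lie near 0. Medians include genes that passed the filter only through replicate 1.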

How the data were processed

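Polyadenylated RNA of estradiol-treated G1E-ER4 cells was measured in 2 libraries of 1 group. The deposited tables were made on mm10, per the labels, with GENCODE M4 and transcriptome alignments, per the text deposited beside them. The sources used here name no aligner, quantification tool or strand setting. The authors deposited estimated counts, not always whole, in a maximum likelihood and a posterior mean version. The deposited TPM and FPKM values are scaled by effective length, and in the deposited transcript tables a percent gives the part of a gene's TPM in each transcript. The deposited signal columns hold interval bounds of TPM and the posterior standard deviation of the count. Per its title, the series has been superseded by a later one, which was not used here.

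Entries that are no genes (26345, with 3 counts in replicate 1 and 0 in replicate 2) were left out. Symbols, transcript types and positions came from GENCODE M21 on the same assembly (42462 genes named). Counts were rounded and scaled by TMM (edgeR 4.0.16, factors 1.15 and 0.871), with a prior count of 0.5 for log2 ratios. The exact binomial step was tested on simulated data. GC content was used where the lengths of a transcript in both annotations agreed within 10%, a tolerance widened after an exact match had covered under 80% of members. Copies were sought with blastn 2.17.0. Alternatives used DESeq2 1.42.0 size factors, total counts, posterior means, other minimum levels and each library alone. Computation used R 4.3.3 and Python 3.11.15 (scipy 1.17.1, pandas 2.3.3, numpy 2.4.6, matplotlib 3.10.9).

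Members, lists and tests were chosen with earlier results of these data known. Named genes are any members, with values for the 3 highest and the lowest of each role, the 5 largest ratios each way and related pairs, and the highest genes of the other lists. The values of 1 member are not reported here, and it is counted but not drawn by name. The printed promoters, the copies, overlaps and transcript pairs, the promoters of detected genes, and the genes of the other lists named beyond the highest were chosen after values were seen.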

Additional observations from a re-analysis of the deposited data

How the results depend on the processing

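No paired analysis was possible because both libraries belong to 1 group. The counts of members detected in both libraries (36 as reported, 31 to 39 under 5 alternatives), called higher in replicate 1 (20 as reported, 14 to 23) and called higher in replicate 2 (7 as reported, 5 to 9) stayed within 1.5 times the reported count. The median log2 ratio of members kept its sign, at 1.29 with total counts, 1.02 with no filter beyond 1 count, 0.21 with a mean CPM of at least 10 (0.015 over all genes), 0.21 with at least 1 CPM in both libraries (0.13 over all genes, added after seeing the data), 0.76 with TMM computed on genes whose mean CPM was 1 or more (added after seeing the data) and 1.02 with deposited TPM plus 0.1, against 0.89 as reported. Scaling by total counts moved the median of all genes to 0.61, against 0.20 as reported, and called 40.1% of genes higher in replicate 1 and 10.6% higher in replicate 2. Beside that shift the signs of 3 members that were not called changed (Snrpc, Sf3b3 and Prpf4). Those of Prpf4b and Lsm14a changed with DESeq2 size factors, and those of Snrpf, Prpf4b and Lsm14a with the added TMM setting. Of the 43 single members, 38 kept their call or lack of one with total counts, 39 with DESeq2 size factors and 43 with posterior mean counts, and total counts added calls for Prpf3, Sf3b2 and Lsm10. The median of the members' mean TPM was 45.9 over detected members alone, and 9.05 to 30.8 with 1 library left out. The members' share of TPM was 0.405 to 0.721% with 1 library left out, and 0.325% without Sf3a2 and Sf3b4, which was added after seeing the data. The share in transcripts not protein coding was 4.34 to 11.1% with 1 library left out. The leading transcript differed in 8 members at a minimum of 1 TPM and in 2 at 50 TPM; the cause was not tested. The depth of replicate 2 limits all statements on members near or under 1 TPM.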
